A study of Mus musculus with 45 samples.

Results

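RNA sequencing libraries of tissue punches from the mouse nucleus accumbens differed in how many of their uniquely aligned reads lay outside every counted gene, the reads that HTSeq reports as no-feature. The 12 libraries with the highest share of such reads were compared, gene by gene, with the 12 libraries with the lowest share, which together make 24 of the 45 libraries of the series. The share is the no-feature reads over all gene, ambiguous and no-feature reads of a library, and the mean of the library's own fluid and treatment group was taken off before the libraries were ranked. The 2 sets were therefore chosen on a measured value and are not groups of the study's design. The 21 libraries between them were not in the comparison and were fitted separately. They were ranked on the same share and entered the group means and the filter on low counts, so they are not an independent check.

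Every mouse was a female of the HDID-1 line, selection generation S35.G37, and every mouse carried both viruses in the nucleus accumbens on both sides. One virus expressed Cre and GFP from the CMV promoter, and the other expressed hM3Dq-mCherry from the hSyn promoter only where Cre was present. hM3Dq is an engineered muscarinic receptor that responds to clozapine N-oxide (CNO). The 4 groups were alcohol drinkers given CNO (12 mice), alcohol drinkers given vehicle (11), water drinkers given CNO (11) and water drinkers given vehicle (11). Drinking sessions ran for 6 weeks, and the CNO groups were injected with it, at 1 mg/kg, during weeks 2 through 5 and with vehicle in the first and last week. The labels give no age. Each library came from a separate mouse.

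As background, a gene is first copied with its introns, and most introns are removed before the mRNA leaves the nucleus. Nuclear RNA is therefore rich in intron sequence and in noncoding RNAs that stay there, such as Meg3 and Malat1, while ribosomal protein and respiratory chain mRNAs are short, spliced and mostly cytoplasmic. Some mRNAs of splicing factors keep certain introns and wait in the nucleus, and these are called detained introns. A read inside an intron has no feature when only exons are counted, but neither the counting mode nor the annotation is given in the sources used.

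The share of no-feature reads ran from 19.5% to 21.9% in the high libraries (median 20.2%) and from 15.6% to 17.9% in the low libraries (median 16.8%). In the 21 libraries between it ran from 17.3% to 20.5%, and over all 45 it averaged 18.6% (SD 1.59). Measured from the group mean, the high libraries lay 1.27 to 3.28 percentage points above it. The low libraries lay 1.27 to 2.99 percentage points below it, at -1.27 to -2.99. The last library inside the high set, alcohol vehicle replicate 8, stood at 1.271, and the first one outside, alcohol CNO replicate 4, at 1.266, so the boundary fell between nearly equal libraries. At the other end alcohol vehicle replicate 1 was inside at -1.273 and alcohol vehicle replicate 5 outside at -1.128. These values chose the libraries and were not tested. Of the alcohol drinkers, 1 library given CNO and 3 given vehicle were in the high set, against 3 and 2 in the low set. Of the water drinkers, 4 given CNO and 4 given vehicle were in the high set, against 3 and 4 in the low set.

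**Figure D1:**
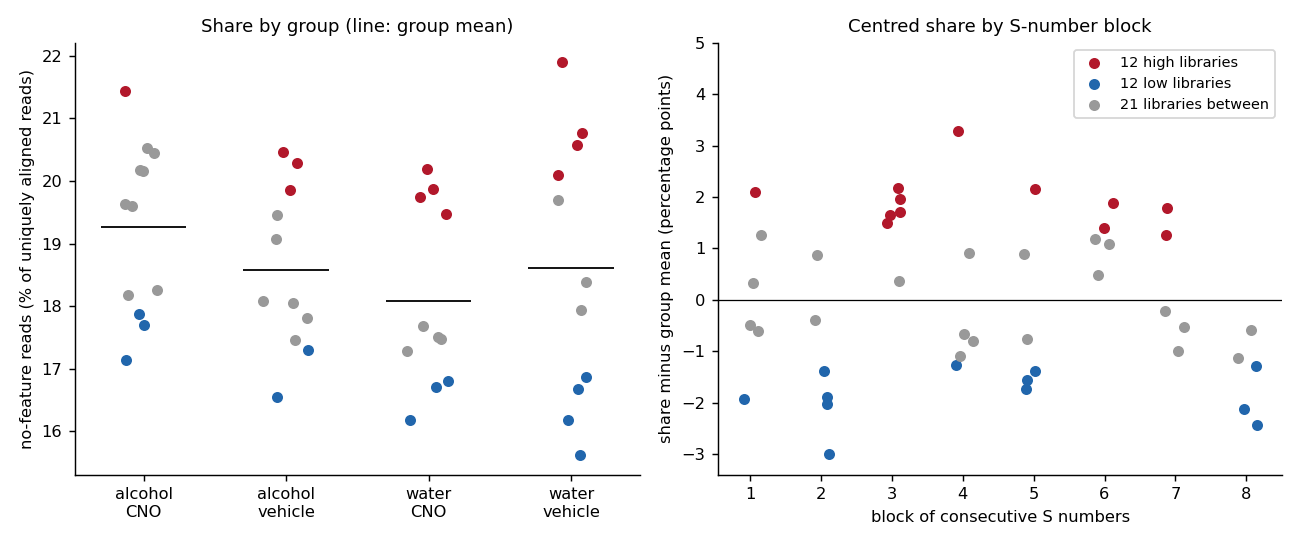
Left, no-feature reads as a percentage of uniquely aligned reads for each of 45 libraries by group, with the group mean as a line. Right, the share minus its group mean by block of consecutive S numbers from the sample titles, where blocks 2 and 8 hold low but no high libraries and blocks 3, 6 and 7 hold high but no low ones.

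Sequencing depth overlapped between the sets: reads assigned to genes numbered 28.2 to 39.5 M (M, mega-reads) in the high libraries and 29.6 to 37.7 M in the low libraries (permutation test, adjusted p = 0.778 over 7 library measures). Other library measures moved with the split. A median of 18579 gene symbols had at least 1 read in the high libraries, against 18302 in the low libraries. A two-sided permutation test on values minus the group mean gave p = 1e-05 (adjusted p = 3.5e-05). That p is the smallest that 100000 permutations can give, and the sets were permuted over the 24 libraries regardless of group. Reads aligned to several places came to a median of 24.4 per 100 assigned reads in the high libraries and 26.7 in the low libraries (p = 2e-05, adjusted p = 4.67e-05, same permutation test). The 10 most counted genes took 2.63% of gene reads in the high libraries and 2.43% in the low libraries (adjusted p = 3.5e-05, same permutation test). The S numbers in the sample titles did not pass the test between the sets (adjusted p = 0.982, same permutation test), but read as 8 consecutive blocks, which the labels do not name, they held the sets unevenly, with no test made. Only blocks 1, 4 and 5 held libraries of both sets, and block 3 held 5 high libraries and no low one.

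A large share of the transcriptome differed, mostly by small amounts. Of 15852 genes tested, 7667 passed an adjusted p of 0.05 (48.4%), with 3915 higher in the high libraries (24.7%) and 3752 lower (23.7%), by edgeR's quasi-likelihood test with Benjamini-Hochberg adjustment. The change was under 1.5-fold for 6788 of them. At 1.5-fold or more, 762 genes were higher and 117 lower, and at 2-fold or more 185 were higher and 11 lower. The CPM (counts scaled to the size of the library) of the high and low libraries did not overlap for 1004 genes (6.33%), 625 of them higher (3.94%) and 379 lower (2.39%). Since a called gene is so common here, a list of genes is described below by its count and median beside these shares.

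In the 21 libraries between the sets, gene levels mostly moved with the share in the same direction. These libraries were left out of the comparison, but their slope is on the same share that chose the sets. A slope of log2 level on the centred share, fitted in these libraries alone, passed for 2594 genes (16.4%), 1310 of them with a positive slope (8.26%) and 1284 with a negative one (8.1%). Of the 7667 genes called between the sets, 7093 had a slope of the same sign (92.5%). Of the 2594, 2404 were also called between the sets, and each of these 2404 had the same direction in both. No gene's change differed between alcohol and water libraries or between CNO and vehicle libraries at an adjusted p of 0.05 (0 of 15852 in each interaction test by edgeR and by limma voom). At an unadjusted p under 0.05 there were 944 genes of 15852 for fluid and 332 for treatment by edgeR. Without adjustment a threshold of 0.05 lets through about that share of genes when none differs, so these counts point to no gene. With 1 high and 3 low libraries among alcohol drinkers given CNO, a difference could also be missed.

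Most of the nuclear noncoding RNAs tested rose: of 24 on the list 23 were tested, 16 rose and 1 fell, with a median log2 change of 0.31 against -0.01 for all genes. Nespas was the 1 not tested. In the 21 libraries between the sets, 7 of the 23 had a positive slope that passed and none a negative one. Their changes were not alike, since the quartiles of the 23 ran from 0.09 to 0.91.

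Meg3, a maternally expressed noncoding RNA kept in the nuclei of neurons (chr12:109541001-109571726, plus strand, GRCm38), had 4314 CPM in the lowest, 5464 CPM in the median and 6581 CPM in the highest of the high libraries, against 1726, 2329 and 3073 CPM in the low libraries. Every high library lay above every low one. The log2 change was 1.25 ± 0.07 (SE, n = 12 libraries each; edgeR adjusted p = 6.57e-11). In the 21 libraries between, Meg3 gained 0.34 ± 0.04 on the log2 scale per percentage point of the share (SE, n = 21; edgeR adjusted p = 0.000145). Its mean was 6581 CPM in the 1 high and 2668 CPM in the 3 low alcohol CNO libraries, and 5263 CPM against 2330 CPM in the alcohol vehicle libraries. It averaged 4821 CPM in high and 2288 CPM in low water CNO libraries, and 5602 CPM against 2159 CPM in the water vehicle libraries, so the order held in each group.

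Snhg11, a host gene of small nucleolar RNAs (chr2:158375638-158386145), had 1641, 2164 and 2359 CPM in the lowest, median and highest high library, against 746.3, 1001 and 1274 CPM in the low libraries, and its sets did not overlap either. Its log2 change was 1.09 ± 0.07 (SE; edgeR adjusted p = 2.91e-10). Malat1, a noncoding RNA of nuclear speckles (chr19:5795690-5802672), had 424.5, 541.7 and 708.8 CPM in the high libraries, against 203.6, 303.3 and 441.9 CPM in the low ones. Here the lowest high library fell just under the highest low one, and the log2 change was 0.96 ± 0.08 (edgeR adjusted p = 7.76e-09).

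Ftx, a noncoding gene of the X-inactivation centre (chrX:103560907-103623790), had a median of 98.6 CPM in the high libraries and 43.5 CPM in the low libraries, with a log2 change of 1.21 ± 0.10. Firre, an X-linked noncoding RNA that binds chromatin, had medians of 107.5 CPM in the high and 59.8 CPM in the low libraries and a log2 change of 0.87. Neither gene's sets overlapped. Members described next were chosen after their values were seen. Kcnq1ot1, the long antisense RNA of an imprinted domain (chr7:143203458-143296549), had 29.4, 40.7 and 57.4 CPM in the high libraries, against 11.2, 16.6 and 21.3 CPM in the low libraries, a log2 change of 1.35 ± 0.13. Mirg, which lies in the same imprinted region as Meg3 and carries microRNA genes, changed by 1.18, while Rian, the gene between them, changed by 0.37. Miat and Neat1 rose by 0.74 and 0.55.

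Xist, the RNA that coats the inactive X chromosome, stood at 1157, 1437 and 1743 CPM in the high libraries, against 1104, 1200 and 1403 CPM in the low libraries. The ranges overlapped, the log2 change was 0.28 ± 0.06, and the slope in the libraries between was 0.01 with an adjusted p of 0.91 (edgeR). Pantr1, at -0.19, was the 1 member that fell. Tug1, Peg13, Airn, Dlx6os1, Sox2ot and Rmst did not pass, with log2 changes from -0.07 to 0.29.

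**Figure D2:**
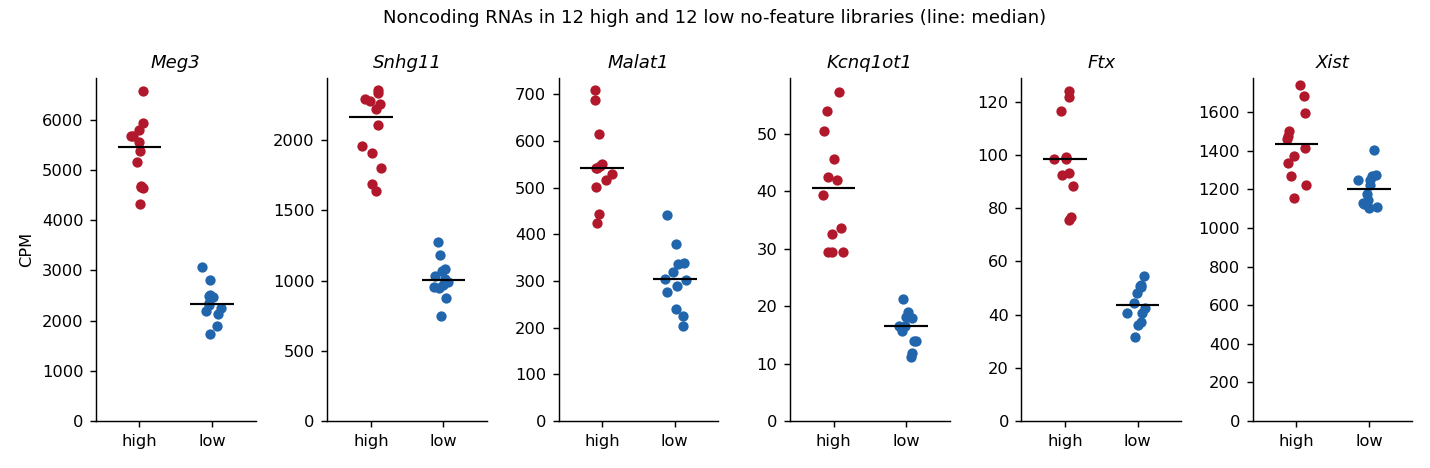
CPM of 6 noncoding RNAs in the 12 high and 12 low libraries, 1 point per library, with the median as a line and each axis starting at 0. Meg3, Snhg11, Kcnq1ot1 and Ftx show no overlap, Malat1 overlaps slightly and Xist overlaps widely.

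The list of splicing regulators and genes known for detained introns rose almost as a whole. Of 34 genes 33 were tested, 30 rose, none fell, the median log2 change was 0.45 and 17 had no overlap. In the libraries between the sets 22 of the 33 had a positive slope that passed and none a negative one. Srrm1, a serine- and arginine-rich splicing coactivator (chr4:135320484-135353321), had 167.0, 194.3 and 206.4 CPM in the high libraries, against 117.9, 125.3 and 136.7 CPM in the low libraries. Its sets stood clear of each other, with a log2 change of 0.61 ± 0.04 (SE; edgeR adjusted p = 1.12e-10). Pnisr, an arginine- and serine-rich protein of nuclear speckles, had medians of 279.7 CPM in the high and 163.3 CPM in the low libraries (log2 change 0.79 ± 0.05). Arglu1, a regulator of splicing and transcription, had medians of 139.4 CPM in the high and 103.2 CPM in the low libraries (0.50 ± 0.03). Nktr, Srrm2 and Ogt, chosen after their values were seen, changed by 0.74, 0.61 and 0.48. Ogt is the enzyme that attaches O-GlcNAc to proteins and is a well-studied case of intron detention. Mgea5, which removes O-GlcNAc and was on the same list, did not pass (-0.06 ± 0.03), nor did Tra2b and Slc7a2.

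The same order held within the 3 S-number blocks that hold both sets. Apart from 1 low library in block 5, the high and low libraries of a block came from different fluid and treatment groups. The group was not taken off the values given by block. In block 1, with 1 library each, Meg3 had 5674 CPM in the high and 2251 CPM in the low library, and Srrm1 202.0 CPM and 130.1 CPM. Block 4, again with 1 library each, gave Meg3 5558 CPM in the high and 2475 CPM in the low library. In block 5, Meg3 had 5371 CPM in the 1 high library and a mean of 2641 CPM in the 3 low ones. With the block as a covariate 4979 genes were called (31.4%), Meg3 changed by 1.26, 11 of the 23 noncoding RNAs and 28 of the 33 splicing genes rose. A slope over all 45 libraries with the block as a covariate called 6841 genes (43.2%).

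**Figure D3:**
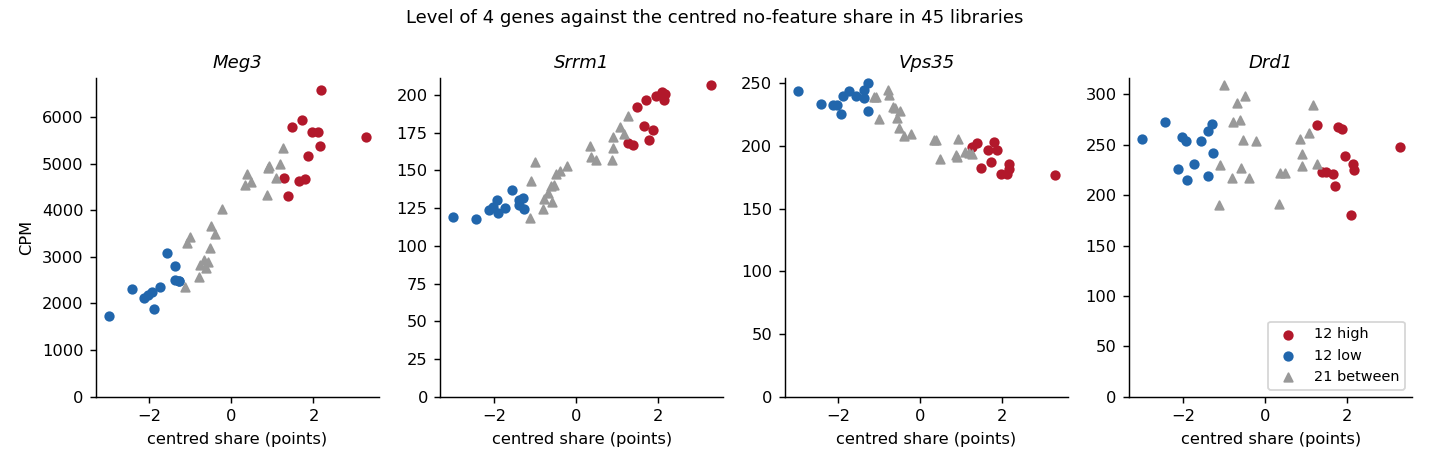
CPM of Meg3, Srrm1, Vps35 and Drd1 against the centred share in percentage points, 1 point per library for all 45, with triangles for the 21 libraries between the sets. Meg3 and Srrm1 climb and Vps35 declines through the triangles as well, while Drd1 shows no trend.

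Genes annotated with retained introns rose more often. GENCODE M21 lists transcripts of the retained-intron type for many protein-coding genes. Among the 6299 tested genes with no such transcript, 16.3% rose and 26.8% fell, with a median log2 change of -0.05. Among the 950 genes with 5 or more, 51.8% rose and 12.2% fell, with a median of 0.12. The shares between climbed with each step, from 20.2% higher with 1 such transcript to 39.5% with 4. Genes with more annotated transcripts were also more highly counted, with a median log2 CPM of 4.00 at none and 5.80 at 5 or more. Within each quintile of level the share that rose was higher with 5 or more such transcripts than with none: 32.1% against 18.9% in the lowest, 57.7% against 16.2% and 61.1% against 16.5% in the next ones, 59.0% against 16.2% in quintile 4 and 42.1% against 12.0% in the highest.

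GC content of the longest annotated transcript moved with the change too. In the quintile of genes with the lowest GC content, up to 44.1%, 15.3% rose and 40.3% fell. In the quintile with the highest, from 55.7%, 34.8% rose and 10.6% fell. The contrast by retained introns was seen inside both ends: in the lowest quintile of GC 36.6% of genes with 5 or more such transcripts rose against 10.4% of those with none, and in the highest quintile 63.4% against 23.7%. By quintile of genomic span, the share of genes that rose lay between 20.2% and 27.3% and the share that fell between 23.9% and 25.7%. The longest genes stood apart from that: of 214 genes spanning over 500 kb 11.7% rose and 39.7% fell, and of 710 spanning 200 to 500 kb 13.7% rose and 28.6% fell. Of 1530 genes spanning under 5 kb, 17.1% rose and 25.4% fell. These are shares over genes, which are not replicates, and their part in the changes was not tested.

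**Figure D4:**
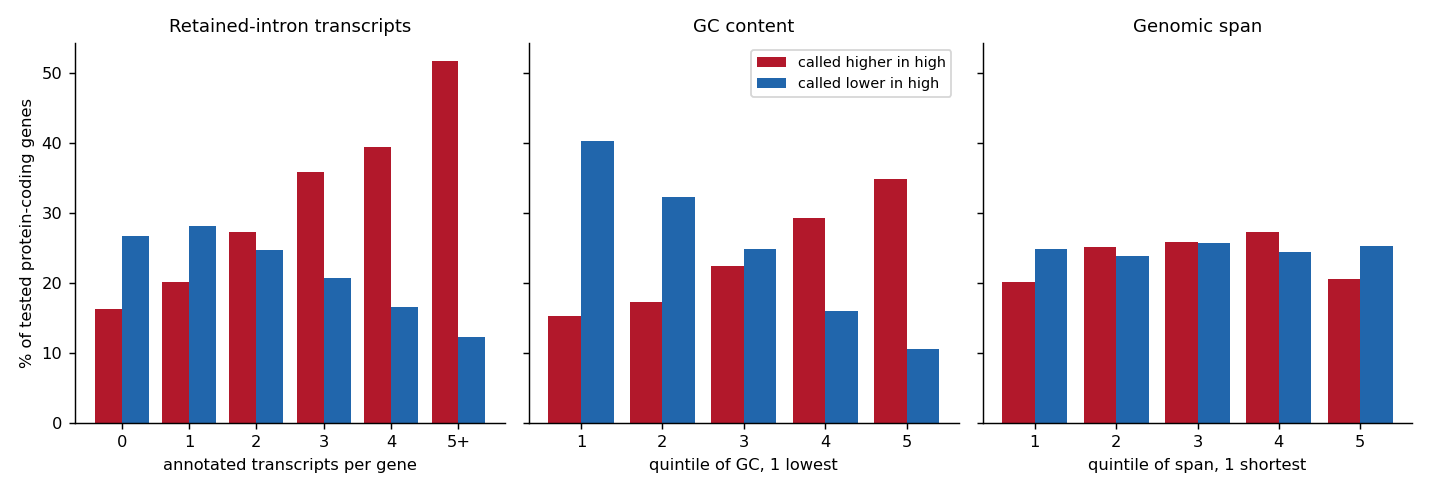
Percentage of tested protein-coding genes called higher or lower in the high libraries, by number of annotated retained-intron transcripts, by quintile of GC content and by quintile of genomic span. The share called higher climbs from 16.3% to 51.8% with retained introns and from 15.3% to 34.8% with GC content, and lies between 20.2% and 27.3% across quintiles of span, which do not show the longest genes apart (11.7% called higher over 500 kb).

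Symbols of microRNA genes had low counts, and 59 of 1174 passed the filter on low counts. A symbol near the limit can pass through the libraries where it is higher, so the counts that follow are a description of those that passed and support nothing about direction. Among those 59, 41 rose and 1 fell, with a median log2 change of 0.84, and 10 had no overlap. In the libraries between the sets 14 had a positive slope that passed and none a negative one. A TruSeq RNA library does not capture mature microRNAs, which are too short, so such reads come from longer RNA at the locus. Of the 59, 22 lie within an intron of a gene on the same strand and 27 overlap an exon of one. For these a read of the microRNA gene and a read of the host RNA cannot be told apart. Over an exon that host RNA may be spliced or unspliced. For 19 intronic microRNA genes with a single tested host, the microRNA symbol changed more than its host in 18, with medians of 1.25 for the microRNA genes and 0.37 for their hosts.

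Hairpins are shown for 5 microRNA genes with small p-values that lie in Ftx, Rian or Mirg, as RefSeq gives them for these symbols. The 5 were chosen after their values were seen. The annotation behind the counts is not given, so the counted intervals may differ. The sequences are RefSeq's for GRCm38, written 5′ to 3′ as RNA, with the annotated mature arms in capitals.
Mir374b: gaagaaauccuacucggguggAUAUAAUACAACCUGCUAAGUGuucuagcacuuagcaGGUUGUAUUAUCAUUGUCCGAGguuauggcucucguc
Mir421: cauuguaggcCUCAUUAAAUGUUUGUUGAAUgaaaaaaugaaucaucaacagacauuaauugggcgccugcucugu
Mir341: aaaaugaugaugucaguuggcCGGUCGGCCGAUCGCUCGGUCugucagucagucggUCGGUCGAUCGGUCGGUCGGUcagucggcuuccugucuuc
Mir1188: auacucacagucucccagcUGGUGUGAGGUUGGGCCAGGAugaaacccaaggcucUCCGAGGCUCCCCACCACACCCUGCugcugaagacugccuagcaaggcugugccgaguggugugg
Mir3072: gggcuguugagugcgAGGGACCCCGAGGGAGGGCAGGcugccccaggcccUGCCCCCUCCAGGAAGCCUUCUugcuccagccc
The annotated mature arms of these 5 hairpins are listed next with the seed, bases 2 to 8, in capitals, and each seed occurs once among them. For Mir421 the annotation used holds the 5p arm only, which says nothing about its other arm.
mmu-miR-374b-5p: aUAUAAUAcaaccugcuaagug
mmu-miR-374b-3p: gGUUGUAUuaucauuguccgag
mmu-miR-421-5p: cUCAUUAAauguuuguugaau
mmu-miR-341-5p: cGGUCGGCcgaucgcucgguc
mmu-miR-341-3p: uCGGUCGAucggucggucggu
mmu-miR-1188-5p: uGGUGUGAgguugggccagga
mmu-miR-1188-3p: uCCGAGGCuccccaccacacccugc
mmu-miR-3072-5p: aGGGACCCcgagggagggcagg
mmu-miR-3072-3p: uGCCCCCUccaggaagccuucu

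Mir374b (chrX:103573060-103573154, minus strand), inside an intron of Ftx, had 2.76, 3.36 and 4.78 CPM in the lowest, median and highest high library, against 0.83, 1.35 and 1.87 CPM in the low libraries. Those medians are 111 reads in a high and 42.5 reads in a low library, the sets did not overlap, and the log2 change was 1.43 ± 0.13 (SE; edgeR adjusted p = 8.01e-09). Mir421 (chrX:103572921-103572996, minus strand), from the same intron, changed by 1.25 and Ftx itself by 1.21. Mir341 (chr12:109611500-109611595) and Mir1188 (chr12:109611822-109611941), both in introns of Rian on the plus strand, changed by 1.33 and 1.40, against 0.37 for Rian. Mir3072 (chr12:109747878-109747960, plus strand), which overlaps an exon of Mirg, had a median of 2.38 CPM in the high libraries and 0.78 CPM in the low libraries, a log2 change of 1.61 ± 0.19. Between the start of Meg3 and the end of Mirg (chr12:109541001-109749460), 10 microRNA genes of 57 listed passed the filter. All 10 were called higher, by 0.89 to 1.61, where 69.5% of all 59 tested microRNA symbols were. The caution on the filter holds for these 10 as well, so their count supports nothing about the region.

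Small nucleolar RNA symbols come with the same caution, since many lie near the filter. Of 119 symbols 38 passed it, 22 rose and none fell, with a median log2 change of 0.62. Snora31 guides a modification of ribosomal RNA and lies in an intron of Tpt1. It had medians of 0.60 CPM in the high and 0.27 CPM in the low libraries (log2 change 1.22 ± 0.20). Tpt1 itself changed by -0.21. For 9 intronic small nucleolar RNA genes with a single tested host, 8 changed more than the host, 5 hosts fell and 1 rose. Of 12 spliced noncoding host genes on a separate list, 3 rose (Snhg17 by 0.53, Snhg20 by 0.52 and Snhg7 by 0.33), none fell, and the median was 0.02. The share of this list that rose, 25%, was near the 24.7% of all tested genes. That list leaves out Snhg11, given above, and Snhg14, which were on the nuclear noncoding list and rose by 1.09 and 0.27.

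Most short housekeeping genes tested fell. Of 179 listed 177 were tested, 113 fell and 11 rose, with a median log2 change of -0.17, and in the libraries between the sets 77 had a negative slope that passed and 1 a positive one. Of 53 nuclear-coded respiratory chain genes 42 fell and none rose (median -0.18). Ndufb11, a subunit of complex I, had 71.1, 76.6 and 93.2 CPM in the high libraries, against 89.6, 94.9 and 107.6 CPM in the low libraries. Its ranges overlapped slightly and the log2 change was -0.28 ± 0.04 (SE; edgeR adjusted p = 1.97e-06). Ndufa4, a respiratory chain subunit first assigned to complex I, and Uqcrh, a hinge subunit of complex III, changed by -0.26 and -0.23.

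Cytosolic ribosomal protein genes fell in 42 of 79 cases and rose in 9 (median -0.16). Rpl15, of the large subunit, had medians of 53.8 CPM in the high and 64.5 CPM in the low libraries (log2 change -0.24 ± 0.03). The 9 that rose, among them Rps18, Rpl17 and Rpl10a, were all weakly counted, with medians from 0.76 to 7.96 CPM in the high and from 0.53 to 5.70 CPM in the low libraries. The 42 that fell had medians of 6.08 to 491.5 CPM in the high and 7.13 to 555.9 CPM in the low libraries. Many ribosomal protein genes have near-identical processed copies in the genome, and reads that align to several places were not assigned to genes, so these values are uncertain, as is the direction of the weakly counted ones. Gapdh, a glycolytic enzyme with many such copies, stood at only 7.17 CPM in the high and 4.68 CPM in the low libraries and rose by 0.63. Among the other short genes Prdx1, Prdx2 and Txn1, which handle peroxides and thiols, fell by 0.28, 0.24 and 0.26 without overlap of the sets. With the S-number block as a covariate 21 of the 177 fell between the 24 libraries, with a median of -0.07, while the slope over all 45 libraries with the block had 102 of them lower.

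Long neuronal genes gave no single direction. All 94 were tested, with a median span of 784 kb, 33 fell and 15 rose, and the median log2 change was -0.09. In the libraries between the sets 9 had a positive and 5 a negative slope that passed, and the median slope was -0.01. Ryr3, a calcium release channel (chr2:112631355-113217096), had 220.7, 254.1 and 309.2 CPM in the high libraries, against 130.6, 159.0 and 187.7 CPM in the low libraries. It rose without overlap (0.76 ± 0.07; edgeR adjusted p = 1.87e-08), as did Pcdh15, a cadherin of hair cells and some neurons (0.56 ± 0.06). Cacna1e, a voltage-gated calcium channel, and Celf2, a splicing regulator, rose by 0.40 and 0.27. Among those that fell, Ntm, a cell adhesion molecule, had medians of 80.2 CPM in the high and 101.6 CPM in the low libraries (-0.34 ± 0.04). Negr1, another adhesion molecule of the same family, fell by 0.26, and Ppp2r2b, Fgf12 and Ctnna2 fell by 0.22, 0.25 and 0.19, all 4 without overlap. With the block as a covariate 46 fell and 5 rose (median -0.22), while with a score of vascular markers as a covariate 5 fell and 15 rose and the median became 0.04, so the list's direction turned with the covariate.

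Genes outside the lists that changed most firmly were spread over many functions. Shisa7, an auxiliary protein of synaptic receptors (chr7:4825552-4844696), had 416.1, 447.5 and 489.8 CPM in the high libraries, against 271.5, 310.9 and 338.9 CPM in the low libraries, with a log2 change of 0.58 ± 0.04 (edgeR adjusted p = 1.12e-10) and no overlap. Fam228a changed by 1.50 and the RIKEN transcript A930013F10Rik by 1.21. Cep164, a centriole protein, Nfrkb, a chromatin remodelling subunit, and Scaf4, a factor in transcription termination, rose by 0.59, 0.47 and 0.44. Each of these genes also stood clear in the high set.

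The firmest falls were smaller. Vps35, a retromer subunit that recycles membrane proteins (chr8:85260392-85299802), had 177.0, 186.4 and 203.2 CPM in the high libraries, against 225.8, 239.0 and 250.2 CPM in the low libraries. The sets did not overlap and the log2 change was -0.32 ± 0.03 (edgeR adjusted p = 1.77e-09). Oxct1, the enzyme that starts ketone body use, fell by 0.28, Omg, the oligodendrocyte-myelin glycoprotein, by 0.32, and Eps15, an endocytosis adaptor, by 0.35. Ppp2cb, Ghitm, Gdi2, Calu, Rbbp4 and Smim15 fell by 0.20 to 0.32. Many of these genes overlap another on the opposite strand, such as Fam228a with Itsn2, Scaf4 with Sod1, Vps35 with Orc6 and Omg with Nf1, and since no strand setting is given, reads of such pairs cannot be told apart.

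Markers of the medium spiny neurons, the main neurons of the nucleus accumbens, were at high levels in both sets, with sums of 8508 to 11040 CPM in the high and 8601 to 10650 CPM in the low libraries. Of 18 tested, 1 rose and 1 fell (5.6% each, against 24.7% and 23.7% of all genes), and the median log2 change was 0.01. Drd1, the D1 dopamine receptor, had 180.8, 228.0 and 269.3 CPM in the high libraries, against 215.2, 253.8 and 273.1 CPM in the low libraries, and did not pass (-0.06 ± 0.06; edgeR adjusted p = 0.362). Drd2, Penk and Pdyn, the D2 receptor and the precursors of enkephalin and dynorphin, had log2 changes of 0.12, 0.09 and 0.01 and did not pass either. Rgs9, a brake on G protein signalling, was the 1 that rose, with medians of 568.4 CPM in the high and 422.2 CPM in the low libraries (0.57 ± 0.07) and no overlap. Tac1, the substance P precursor, fell by 0.21. Of 17 mRNAs known from dendrites and axons, 2 rose (12%) and 3 fell (18%), with a median of -0.03. Both shares were below those of all genes. The list was led by Grin1, an NMDA receptor subunit, at 0.27 and Kif5a, a kinesin motor, at -0.30.

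Vascular, cortical and astrocyte markers moved with the split, and so did microglia markers, with fewer of them past the threshold. Of the markers of other cell types few or none passed. In bulk tissue, fewer cells of a type and less RNA per cell cannot be told apart. Of 13 vascular markers 11 rose and none fell (median 0.34), and all 13 had a positive slope in the libraries between the sets, 6 of them past the threshold. Their summed level ran from 248.1 to 340.1 CPM in the high libraries (median 297.6) and from 207.9 to 280.9 CPM in the low libraries (median 238.4). Pdgfrb, of pericytes, rose by 0.31 and Slco1a4, a transporter of brain endothelium, by 0.52, while Ly6c1 and Rgs5 did not pass, at 0.15 and 0.08. Cortical glutamatergic markers went the other way, with 9 of 12 lower and none higher (median -0.62). Their sum ran from 375.7 to 1216 CPM in the high libraries (median 651.2) and from 647.0 to 1272 CPM in the low libraries (median 891.2). Neurod6, a transcription factor of cortical projection neurons, had 4.54, 14.5 and 32.3 CPM in the high libraries, against 15.8, 26.8 and 42.6 CPM in the low libraries (-0.91 ± 0.23). The cortical markers showed no passing slope in the libraries between the sets, where their median slope was 0.05.

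Astrocyte markers fell in 7 of 12 cases and rose in none (median -0.21). Mlc1, a membrane protein of astrocyte endfeet, had medians of 181.3 CPM in the high and 221.2 CPM in the low libraries (-0.27 ± 0.05). Slc1a2 and Slc1a3, the glutamate transporters of astrocytes, fell by 0.25 and 0.24. Of 13 microglia markers 4 fell (30.8%, against 23.7% of all genes) and none rose, with a median of -0.20. P2ry12, the purine receptor of resting microglia, fell by 0.37. In the libraries between the sets none of the 13 had a positive slope, and 2 negative slopes passed. Of 14 oligodendrocyte markers 1 rose (7.1%, against 24.7% of all genes), Mag by 0.26, and none fell. Of 9 markers of oligodendrocyte precursors, Cspg4, which pericytes also express, rose by 0.38 and Pdgfra fell by 0.15. That is 11.1% in each direction, below the shares of all genes. None of the markers of these 6 types was at 0 in any of the 24 libraries. None of 9 septal, pallidal and cholinergic, 8 ependymal and choroid, 9 lymphoid and MHC class II or 15 interferon-induced genes passed. Of 7 blood cell markers 1 was tested and it did not pass, and 2 were at 0 in all of the 24 libraries. The part of these cell type differences in the other results was not tested beyond the fits that follow.

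With the vascular score as a covariate 3189 genes were called (20.1%), 2905 of them also called without it and in the same direction. With scores of vascular, cortical, oligodendrocyte, astrocyte and microglia markers together 157 were called (0.99%), 130 higher and 27 lower. Meg3 changed by 1.14 with the vascular score (edgeR adjusted p = 1.22e-05) and by 0.93 with all 5 scores (edgeR adjusted p = 0.0209). In that last fit 4 of the 23 noncoding RNAs and 8 of the 33 splicing genes rose, with medians of 0.39 and 0.22, and none of the short housekeeping or long neuronal genes passed, with medians of -0.18 and 0.04. The median vascular score was 0.14 in the high and -0.18 in the low libraries, and the cortical, astrocyte and microglia scores had lower medians in the high libraries, so the split and these 4 scores cannot be told apart fully in 24 libraries. The oligodendrocyte score had medians of -0.02 in the high and 0.02 in the low libraries, and with it alone as a covariate 7635 genes were called.

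**Figure D5:**
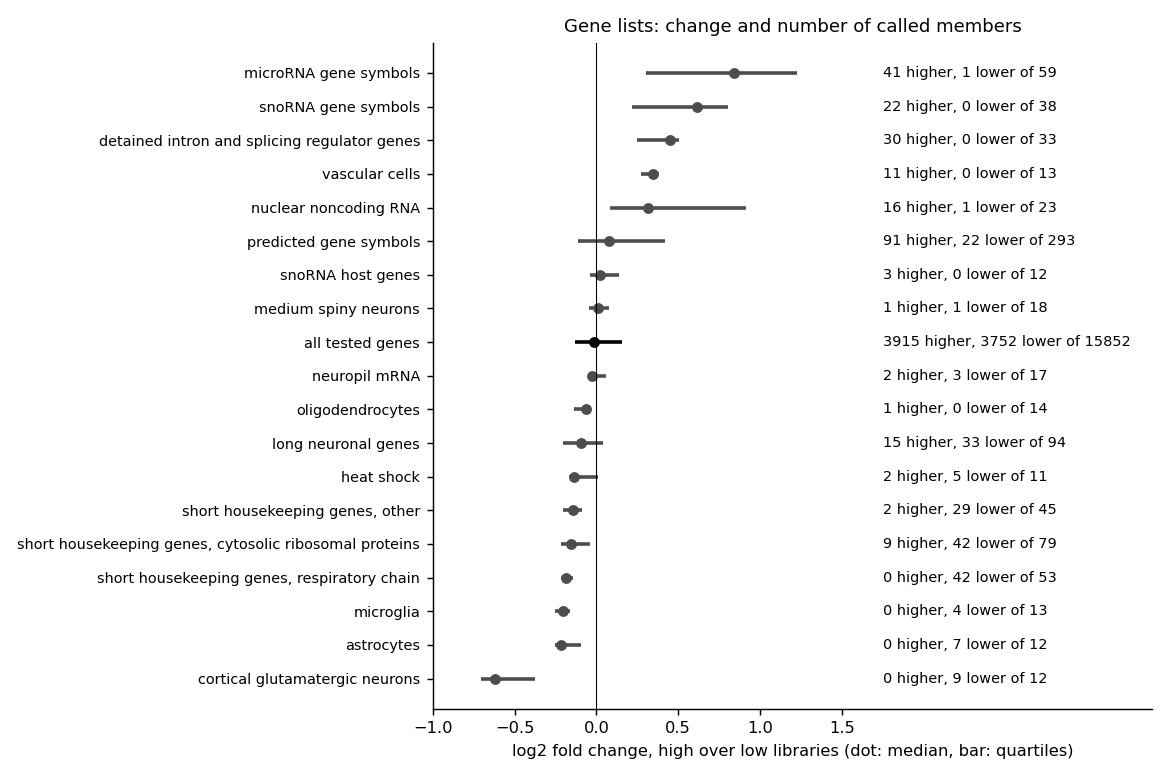
Median log2 fold change of the high over the low libraries (dot) with the quartiles of the tested members (bar) for 18 gene lists and for all tested genes, with the number called in each direction at the right. MicroRNA symbols, splicing genes and vascular markers sit right of 0, the short housekeeping lists and the cortical markers left of it, and medium spiny neuron markers near 0.

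Of the remaining lists, heat shock genes were mixed. Of 11 tested, 5 were lower (45%, against 23.7% of all genes) and 2 higher (18%, against 24.7%). Hsp90aa1, a cytosolic chaperone, had medians of 219.0 CPM in the high and 263.9 CPM in the low libraries and fell by 0.32 without overlap. Of 17 immediate early genes 2 rose, Npas4, an activity-induced transcription factor, by 0.73 and Egr4 by 0.19, and none fell, a smaller share than the 24.7% of all genes that rose. The value of Npas4 turned to -0.077 with the vascular score and to -0.33 with all 5 scores as covariates. Of 12 histone genes tested from 68 symbols 1 rose (8.3%) and none fell. Transcripts with RIKEN names rose in 237 (28.7%) and fell in 108 (13.1%) of 826 tested (median 0.06). Predicted genes rose in 91 (31.1%) and fell in 22 (7.5%) of 293 (median 0.08). The shares that rose were not far from the 24.7% of all genes, and the shares that fell were below 23.7%. The caution on the filter holds for members near it.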

How the data were processed

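The authors deposited 1 file per library of raw counts for 24421 gene symbols plus HTSeq's summary rows, with no normalization. Per the submitters' processing notes they used FastQC, STAR and HTSeq 0.9.1 with GRCm38 (mm10), and per the labels' protocols the input to each TruSeq library was 500 ng of RNA. The sources used here do not give the annotation, the strand setting or the counting mode.

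The libraries, the gene lists and the rule for named genes were chosen with earlier results of these data known. The rule named Meg3, the 10 genes with the smallest p in each direction at a mean log2 CPM of at least 0, the first 5 in each direction of the noncoding, long neuronal and short housekeeping lists, the first 3 of other lists with a call, and 4 striatal genes. Some genes that the rule names are not reported here. Genes were filtered with filterByExpr by group over 45 libraries (15852 kept), scaled by TMM and fitted in edgeR 4.0.16 (R 4.3.3) with group and set as terms. Standard errors are the log2 change over the square root of F, and p-values are adjusted over all tested genes. Library measures minus their group means were compared by permutation over the 24 libraries regardless of group, adjusted over 7 measures. The slope in the middle 21 libraries was fitted separately. Reads assigned to genes numbered 26.8 to 39.5 M per library. Symbols were matched to GENCODE M21 (23334 of 24421) and microRNA genes to RefSeq hairpins (53 of 59). In simulated counts for the 12 against 12 comparison (15852 genes, 100 changed at each fold), 70% of genes changed 1.3-fold and 98% of those changed 2-fold were recovered, with 15 false calls. Alternatives used DESeq2 1.42.0 and limma 3.58.1, other filters, scalings, splits and covariates. Those with the vascular score, the 5 marker scores, or the slope with the block were chosen after seeing the data. The p-values measure the spread between mice, whose share of no-feature reads was itself the basis of the sets.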

Additional observations from a re-analysis of the deposited data

How the results depend on the processing

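The 7667 calls became 4979 with the S-number block, 3189 with the vascular score and 157 with all 5 marker scores as covariates, and lay between 6056 and 8547 under the other alternatives of scaling, filter, tool, covariate or split. Of the calls 51.1% were higher, against 82.8% with all 5 scores. For the noncoding RNAs that rose, 16 became 9 with the vascular score and 4 with all 5 scores. For the long neuronal genes that fell, 33 became 5 and 0, and for the short housekeeping genes that fell, 113 became 21 with the block and 0 with all 5 scores, against 102 in the slope over 45 libraries with the block. The cause was not tested. Without 1 library at a time there were 6975 to 7800 calls, 14 to 16 noncoding RNAs higher, 29 to 42 long neuronal genes lower and 106 to 119 short housekeeping genes lower. The 100 named genes gave 4600 values under alternatives, 2400 of them from leaving out 1 library at a time. The share over uniquely aligned reads gave the same sets, so its values could not differ. With all 5 scores 31 of the 100 genes kept their call or its absence, and with the vascular score 78. Of all 4600 values, 4432 kept the call or its absence, 138 lost the call, 24 gained it and 6 turned sign with a call in either fit. Those 6 were Emx1 at 0.028 with the cortical score, Npas4 at -0.077 with the vascular score, and Grik2 at -0.045, Bhlhe22 at 0.078, Emx1 at 0.41 and Npas4 at -0.33 with all 5 scores. The median of all genes stayed between -0.02 and 0.00 under the 3 scalings. The share without removing the group mean gave sets with 8 high and 10 low libraries in common with the main ones. No paired analysis was possible because each mouse gave 1 library and replicate numbers only name samples. MicroRNA and small nucleolar RNA symbols rest on few reads per library, which limits their precision.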

Other observations

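Genes that GENCODE classes as antisense rose in 108 of 230 cases (47.0%) and fell in 10 (4.3%), with a median log2 change of 0.26. Long intergenic noncoding genes rose in 71 of 229 (31.0%) and fell in 16 (7.0%). Both classes were weakly counted, with median log2 CPM of 0.29 and 0.62, and the caution on the filter holds for them. In the lowest level quintile of protein-coding genes (median log2 CPM 0.26), 21.1% rose and 6.7% fell. Kcnq1ot1 belongs to the antisense class, as does Ube4bos3, which had a median of 2.29 CPM in the high and 0.89 CPM in the low libraries (log2 change 1.41 ± 0.14). Without a known strand setting, reads of an antisense gene and its partner cannot be told apart.

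The largest changes among called genes not under a mean log2 CPM of 0 were chosen after their values were seen. On the higher side they included weakly counted protein-coding genes: Col7a1, a collagen of anchoring fibrils, had medians of 6.21 CPM in the high and 2.21 CPM in the low libraries (1.49 ± 0.18), and Prox2, a homeobox factor, 8.71 CPM in the high and 3.72 CPM in the low libraries (1.38 ± 0.13). Npc1l1, the intestinal cholesterol transporter, had medians of 1.64 CPM in the high and 0.61 CPM in the low libraries. On the lower side stood Bmp3, a growth factor of the TGF-beta family, with medians of 3.01 CPM in the high and 7.95 CPM in the low libraries, Nrn1, a neurite growth factor, with 15.3 CPM in the high and 25.5 CPM in the low libraries, and Vip, the vasoactive intestinal peptide, with 4.71 CPM in the high and 7.53 CPM in the low libraries. For these 3 genes the high and low libraries overlapped.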
